A study of Mus musculus with 2 samples.

Results

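MHC class I molecules present peptides from inside the cell to CD8+ T cells, and the 10 genes described here encode their chains and the machinery that supplies the peptides. They are H2-K1 and H2-D1 (class I heavy chains), B2m (the light chain β2-microglobulin), Tap1 and Tap2 (the peptide transporter of the endoplasmic reticulum), Tapbp (tapasin, which joins class I molecules to the transporter), Erap1 (an aminopeptidase that trims peptides), Psmb8 and Psmb9 (catalytic subunits of the immunoproteasome) and Nlrc5 (a transactivator of class I genes). The genes were chosen by symbol, and each symbol matched 1 of the 55487 Ensembl genes in the count table.

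RNA was sequenced from Langerhans cells, dendritic cells that live in the epidermis. CD207+ MHC II+ cells were sorted from digested ears of mice labelled HTR2A-/- (serotonin 2A receptor knockout), and were then kept for 24 hours with Imiquimod, an agonist of a Toll-like receptor, and with a-CD40L, which the labels do not describe further. There were 2 samples in 1 group, and both carried the knockout and the treatment. Therefore the values are levels in stimulated knockout cells and no wild-type or untreated sample was analysed here. The labels give no strain, age or sex of the mice and no number of mice per sample, and the title of the series calls the cells monocyte-derived although the protocols describe cells from ears.

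Library 1 held 69925160 counts and library 2, whose column carries the replicate number 2, held 42264685. Nothing in the labels says that the samples came from separate mice. The marker of the sort, Cd207, was at 1125 CPM (counts per 1000000 counts of the library) in library 1 and at 1052 CPM in library 2. The knocked-out gene, Htr2a, had 77 counts in library 1 and 117 in library 2 (0.196 and 0.494 CPM per kb of exon), within the range of olfactory receptor genes in both, and the labels do not say which of its exons are deleted. The 6 Langerhans cell markers did not move as a group: Mfge8 was at 6204 and 2118 CPM, Cd74 at 7188 and 4067, H2-Ab1 at 3486 and 1953, Epcam at 155 and 178 and Cdh1 at 481 and 793. The 10 keratinocyte markers summed to 4477 CPM in library 1 against 15514 in library 2, and 9 of them were higher in library 2. The 8 markers of mature dendritic cells summed to 3210 and 814 CPM, and all 8 were lower in library 2. Macrophage markers summed to 2108 and 1048 CPM (6 of 7 lower in library 2), T cell markers to 195 and 125 CPM (4 of 8 lower), fibroblast markers to 114 and 42.7 CPM (4 of 6 lower) and endothelial markers to 81.8 and 44.9 CPM (3 of 5 lower). No marker in these lists was at 0 in either library, but 94.2% and 99.6% of olfactory receptor genes also carried counts. Above the background defined below were 7 and 5 of 8 T cell markers in libraries 1 and 2. For fibroblast markers it was 4 and 0 of 6, and for endothelial markers 3 and 1 of 5. All 7 macrophage markers were above it in both libraries. Class I genes are active in nearly all nucleated cells, and the part that the mix of cells played in the values below was not tested. In such bulk RNA, fewer cells of a type and less RNA per cell cannot be told apart.

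Class I genes are transcribed through a compact promoter. NF-κB and interferon regulatory factors (IRFs) bind upstream elements, and NLRC5, together with RFX, CREB or ATF and NF-Y proteins, acts through an X box and a Y box, which hold a TGACG-like and an ATTGG sequence. Interferons raise these genes, and Langerhans cells raise the surface display of MHC molecules as they mature.

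The RefSeq promoter table (GRCm38.p6) held a window from 250 bases before to 50 bases after the start for 8 of the 10 genes, with none for Nlrc5 and Tap2. The upstream sequences of H2-K1 and B2m are shown because each holds NF-κB, IRF and spaced X and Y box-like letters, with capitals marking matches to the NF-κB consensus, the IRF core AANNGAAA, and a TGACG and ATTGG pair.
H2-K1, chr17:34000348-34000597, minus strand: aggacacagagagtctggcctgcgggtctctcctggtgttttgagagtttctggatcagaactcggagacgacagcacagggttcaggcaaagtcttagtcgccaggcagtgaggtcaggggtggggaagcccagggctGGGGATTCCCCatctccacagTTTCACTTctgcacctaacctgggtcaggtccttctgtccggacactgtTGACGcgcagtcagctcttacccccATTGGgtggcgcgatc
B2m, chr2:122147437-122147686, plus strand: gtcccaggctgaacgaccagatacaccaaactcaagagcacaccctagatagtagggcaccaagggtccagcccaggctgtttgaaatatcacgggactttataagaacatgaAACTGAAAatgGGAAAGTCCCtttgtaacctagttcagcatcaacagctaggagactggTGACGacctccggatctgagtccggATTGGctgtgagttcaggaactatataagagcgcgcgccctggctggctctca

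In H2-K1, H2-D1 and B2m, TGACG and ATTGG stood on the same strand with exactly 20 bases between them. A search of both strands of all windows found this spaced pair in 27 of 27025 genes (0.0999%), among them the class Ib gene H2-M3 and no other gene of the lists used here. The spacing was read from these promoters after the sequences had been seen. The pairs of the 4 genes are shown to compare what lies between the capitals.
H2-K1, chr17:34000359-34000388, minus strand: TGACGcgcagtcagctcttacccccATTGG
H2-D1, chr17:35262993-35263022, plus strand: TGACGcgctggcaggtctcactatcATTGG
B2m, chr2:122147609-122147638, plus strand: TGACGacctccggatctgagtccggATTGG
H2-M3, chr17:37270188-37270217, plus strand: TGACGcttctccaattcccattctaATTGG

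The capitals match because they were searched for. Of the 20 bases between them H2-K1 and H2-D1 shared 13, whereas B2m shared 3 with H2-K1 and 2 with H2-D1. The windows of H2-Q7, the class II gene H2-Aa and the kinase gene Jak1 held the same pair at 19, 21 and 18 bases. At each other spacing from 15 to 25 bases, between 7 and 20 genes of all windows held the pair. A second stretch, 30 bases long, holds the NF-κB and IRF matches of the heavy chain genes and is shown because it differed between them at a single base, with 29 of 30 identical, although agreement in the capitals follows in part from the search.
H2-K1, chr17:34000429-34000458, minus strand: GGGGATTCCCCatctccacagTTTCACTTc
H2-D1, chr17:35262923-35262952, plus strand: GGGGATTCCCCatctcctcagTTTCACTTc

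The NF-κB consensus was found in H2-K1, H2-D1 and B2m, against 5.14% of all genes in the table. This consensus is 10 bases long. In the heavy chain genes it matched in overlapping registers of the same symmetrical site. The core AANNGAAA was found in H2-K1, H2-D1, B2m and Erap1, against 26.7% of genes. Its longer form, the core preceded by GA (an interferon-stimulated response element), was found in B2m and Erap1, against 3.99%. The Erap1 match crossed the RefSeq start and is shown with 30 bases.
Erap1, chr13:74639844-74639873, plus strand: ttcacTTTCACTTTCggtcccgggcggcca

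TGACG taken by itself was in 23% of genes and ATTGG in 41.1%. The windows of Tap1 and Psmb9, which overlap, held both, without the spacing above. Their RefSeq start sites lie 226 bases apart on opposite strands, so by RefSeq the interval between them is upstream of each gene. In GENCODE M21, used below for positions and lengths, the genes instead overlap at their starts and share 212 bp of exon. By that annotation no interval separates them. The whole windows of Psmb9, H2-D1, Tapbp and Erap1 lie inside the genes as GENCODE M21 places them. Tapbp held ATTGG only, and none of these letters were found in the window of Psmb8. These matches describe letters and do not show that a factor binds.

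Most of the genes are clustered in the major histocompatibility complex. In GENCODE M21 on GRCm38, 7 of the 10 genes lie on chromosome 17 within 1351601 bp: Tapbp (33915899 to 33929292), H2-K1 (33996017 to 34000347), Psmb9 (34181987 to 34187764), Tap1 (34187553 to 34197225), Psmb8 (34197721 to 34201454), Tap2 (34203527 to 34216321) and H2-D1 (35262730 to 35267499). The run from Psmb9 to Tap2 covers 34335 bp. H2-K1 and Psmb9 are on the minus strand and the others on the plus strand. B2m lies on chromosome 2 (122147686 to 122153083), Erap1 on chromosome 13 (74639568 to 74693201) and Nlrc5 on chromosome 8 (94434356 to 94527272).

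All 10 genes were expressed above background in both libraries, and all 10 had lower CPM in library 2. Background was taken from the 1135 protein-coding olfactory receptor genes, which are known for expression in the nose and carried counts here. A gene was above it when its CPM per kb of exon exceeded their 95th percentile, 0.761 in library 1 and 1.58 in library 2. Of all protein-coding genes, 47.3% met this in both libraries. The member nearest to it was Psmb9 in library 2, at percentile 99.6 of the olfactory receptor genes.

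Both heavy chain genes and the light chain gene were among the most abundant genes of the cells. For B2m library 1 gave 850 CPM (exact 95% Poisson interval 843 to 857) and library 2 gave 320 (315 to 326). H2-D1 had 827 CPM (820 to 833) and 538 CPM (531 to 545), and H2-K1 had 680 CPM (674 to 686) and 541 CPM (534 to 548). Library 1 was the higher for each gene, by 2.66 times for B2m, 1.54 times for H2-D1 and 1.26 times for H2-K1, and the counting intervals of the libraries did not overlap. These intervals cover counting error only. As mean ± SD over the samples the levels were 585 ± 375 CPM for B2m, 683 ± 204 CPM for H2-D1 and 611 ± 98.3 CPM for H2-K1 (SD, n = 2).

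By CPM per kb of exon, B2m stood highest of the 10 genes at 988 CPM per kb in library 1 and 372 in library 2. H2-D1 followed at 321 and 209 CPM per kb and H2-K1 at 232 and 184 CPM per kb. Among all protein-coding genes these levels lay at percentile 99.4 or higher in each library. The ranges of B2m and H2-D1 over the libraries did not overlap, whereas those of H2-D1 and H2-K1 did.

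The heavy chains kept a narrower balance with each other than with the light chain. The ratio of H2-K1 to H2-D1 counts was 0.823 in library 1 (95% interval 0.813 to 0.833) and 1.01 in library 2 (0.987 to 1.02). Scaled by exon length it was 0.722 and 0.883. With the length of the principal transcript in place of all annotated exons it was 1.07 and 1.31, so which heavy chain gene stands higher depends on the length used. The ratio of H2-K1 to B2m counts was 0.800 in library 1 (95% interval 0.791 to 0.810) and 1.69 in library 2 (1.66 to 1.73). For H2-D1 to B2m it was 0.973 (0.962 to 0.984) and 1.68 (1.65 to 1.72). Thus per B2m count library 2 held 2.11 times the H2-K1 counts and 1.73 times the H2-D1 counts of library 1, differences that no scaling of the libraries can alter.

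Counts of the heavy chain genes carry an uncertainty that those of the other genes mostly lack. Of the 50-base words in the H2-K1 transcripts, 9.63% also occur in transcripts of other genes, and of those in H2-D1 12.8% do, mainly each other and H2-Q7, H2-Q10 and H2-Q1. The share was 0% for B2m, Erap1, Psmb9 and Nlrc5 and at most 2.87% (Tapbp) for the rest. How reads that fit several genes were counted is not given in the sources used here. The H2 haplotype of the mice is not known either, since the labels name no strain.

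**Figure D1:**
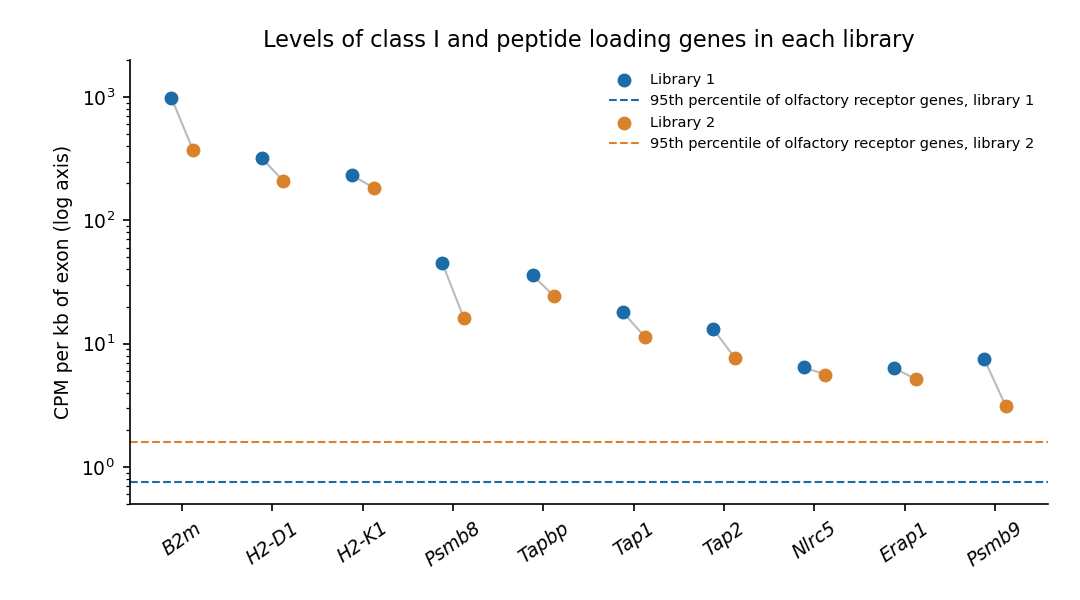
Levels of the 10 genes, as CPM per kb of exon on a log axis, with 1 point per library (blue, library 1; orange, library 2) and grey lines joining the libraries; genes are ordered by mean level. Dashed lines mark the 95th percentile of olfactory receptor genes (0.761 in library 1, 1.58 in library 2), and every point lies above the line of its library, with each blue point above its orange partner.

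Genes for peptide transport, loading and trimming were expressed at intermediate levels. In CPM, Tapbp had 130 in library 1 and 87.7 in library 2. Tap1 had 98.5 and 62.6 CPM, and Tap2 had 49.7 and 28.8 CPM. Erap1 had 46.1 and 37.6 CPM. All 4 were lower in library 2, by 1.48 times for Tapbp, 1.57 times for Tap1, 1.72 times for Tap2 and 1.23 times for Erap1. As mean ± SD they were at 109 ± 30.02, 80.5 ± 25.4, 39.3 ± 14.7 and 41.9 ± 6.004 CPM (SD, n = 2).

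By length the order was Tapbp (35.9 and 24.2 CPM per kb), Tap1 (18.0 and 11.4), Tap2 (13.1 and 7.63) and Erap1 (6.34 and 5.17). The ranges of Tap1 and Tap2 overlapped. The products of Tap1 and Tap2 pair with each other in the transporter. Their count ratio was 1.98 in library 1 (95% interval 1.90 to 2.06) and 2.17 in library 2 (2.03 to 2.32), so library 2 exceeded library 1 by 1.09 times, and the ratio of Tapbp to Tap1 counts was similarly close (1.32 and 1.40). Scaled by exon length Tap1 exceeded Tap2 by 1.368 and 1.498 times.

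Some of these genes share annotated exon sequence with neighbours. The library kit is a stranded one by name, but whether counting used strand is not given in the sources used here. Erap1 shares 834 bp, or 11.5% of its exon length, with Cast on the opposite strand, which had 7604 counts in library 1 and 11936 in library 2, more than Erap1 itself (3226 and 1591). Tapbp shares 904 bp with the antisense gene Gm19412, which had 51 and 14 counts. It also shares 149 bp, or 4.11% of its exon length, with Zbtb22 on the same strand (1489 and 716 counts). Counting by strand cannot separate those bases. Tap2 shares 533 bp with Gm15821 on the opposite strand (4 and 35 counts). Tap1 and Psmb9 share 212 bp on opposite strands at their starts.

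Of the 10 genes Psmb8 differed most between the libraries, followed by B2m and Psmb9. For Psmb8 library 1 gave 153 CPM (Poisson interval 150 to 155) and library 2 gave 54.1 (51.9 to 56.4). Psmb9 had 27.5 CPM (26.3 to 28.8) and 11.4 CPM (10.4 to 12.4). Library 1 was higher by 2.82 times for Psmb8 and 2.42 times for Psmb9, and the means were 103 ± 69.6 and 19.4 ± 11.4 CPM (SD, n = 2). Per kb of exon Psmb8 was at 45.1 and 15.998 CPM per kb and Psmb9 at 7.51 and 3.10, the latter at percentile 81.0 and 64.4 of protein-coding genes. Between Psmb8 and Tapbp, and between Erap1 and Psmb9, the order of levels per kb was not the same in the libraries.

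In immunoproteasomes Psmb8, Psmb9 and Psmb10 take the places of the constitutive catalytic subunits Psmb5, Psmb6 and Psmb7. Library 1 held more of the inducible form in each of the 3 pairs. The ratio of Psmb8 to Psmb5 counts was 8.94 in library 1 (95% interval 8.42 to 9.50) and 2.58 in library 2 (2.38 to 2.79). Psmb9 to Psmb6 was 0.544 (0.514 to 0.575) and 0.213 (0.193 to 0.235), and Psmb10 to Psmb7 was 0.589 (0.550 to 0.631) and 0.222 (0.198 to 0.249).

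The ratios of library 1 exceeded those of library 2 by 3.47 times for Psmb8 to Psmb5, 2.55 times for Psmb9 to Psmb6 and 2.65 times for Psmb10 to Psmb7, each beyond the counting intervals. The constitutive genes went the other way by CPM: Psmb5 was at 17.1 and 21.0, Psmb6 at 50.6 and 53.3 and Psmb7 at 31.3 and 38.1 CPM. Library 2 was higher by 1.23 times for Psmb5, 1.05 times for Psmb6 and 1.22 times for Psmb7. With the TMM scaling used below, log2 ratios of library 2 over library 1 were instead negative: -0.20 for Psmb5, -0.43 for Psmb6 and -0.22 for Psmb7. The direction of the constitutive genes thus depends on scaling, while the ratios within a library do not. Psmb10 was at 18.4 and 8.47 CPM.

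How the inducible and constitutive forms compare in amount is less certain, since it needs gene lengths. Per kb of exon, Psmb8 to Psmb5 was 2.38 in library 1 and 0.685 in library 2, but 4.94 and 1.42 with the length of the principal transcript. Psmb9 to Psmb6 was 0.278 and 0.109 per kb, and 0.321 and 0.126 with the principal transcript, so Psmb9 stayed below Psmb6 with either length. Psmb10 to Psmb7 was 1.18 and 0.446 per kb, and 0.521 and 0.197 with the principal transcript.

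**Figure D2:**
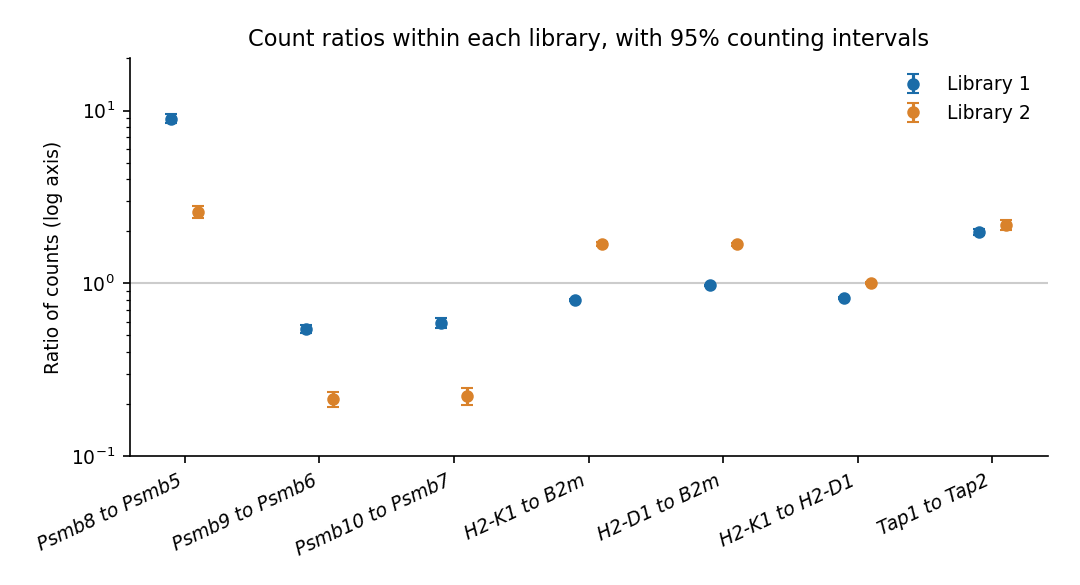
Ratios of counts between paired genes within each library, on a log axis, with exact 95% intervals for counting error (blue, library 1; orange, library 2). The 3 immunoproteasome to constitutive ratios are higher in library 1, the ratios of H2-K1 and H2-D1 to B2m are higher in library 2, and Tap1 to Tap2 lies near 2 in both.

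Nlrc5, the regulator of the group, differed least between the libraries. Its level was 54.6 CPM (Poisson interval 52.8 to 56.3) in library 1 and 47.7 (45.6 to 49.8) in library 2, or 51.1 ± 4.85 CPM (SD, n = 2). Library 1 was 1.14 times higher, and the intervals did not overlap. Per kb of exon it was at 6.42 and 5.62, close to Erap1 and with an overlapping range, at percentile 78.5 and 76.4 of protein-coding genes.

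To set these differences against those of other genes, library 2 was compared with library 1 after TMM scaling, which lowers each log2 ratio by 0.50 against total counts. The binomial test of edgeR, exact and adjusted by Benjamini-Hochberg over 30351 genes, called all 10 genes lower in library 2 (largest adjusted p = 2.74e-70, Nlrc5). Of all genes tested, 80.3% were called in either direction, 36.1% lower and 44.2% higher. The test compares these 2 libraries, not conditions, and treats counts as independent, so a call means only that sampling noise is exceeded. At least 2-fold lower were 7 of the 10 genes, against 12.6% of all genes tested. With total counts in place of TMM all 10 were still called lower, but 3 of the 10 (B2m, Psmb8 and Psmb9) at least 2-fold, against 5.47% of all genes, and the median log2 ratio was -0.64.

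The comparison with all tested genes includes many that lie within background, where library 2 is higher. Among the 10372 tested protein-coding genes above background in both libraries, 65.8% were called lower and 20.7% were called at least 2-fold lower. The median log2 ratio of the 10 genes was -1.14, against -0.43 for these expressed genes and 0.15 for all genes tested. The log2 ratios were -2.00 for Psmb8, -1.91 for B2m, -1.77 for Psmb9, -1.29 for Tap2, -1.16 for Tap1, -1.12 for H2-D1, -1.07 for Tapbp, -0.83 for H2-K1, -0.79 for Erap1 and -0.69 for Nlrc5. All 10 lay below the median of expressed genes, from percentile 3.11 (Psmb8) to percentile 35.3 (Nlrc5) of their ratios.

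By total counts alone the 10 genes were also lower in library 2, as were 46% of the 10372 expressed genes. Relative to Langerhans cell markers the direction rested on the marker. All 10 genes were lower in library 2 relative to Cd207, Epcam or Cdh1, all 10 were higher relative to Mfge8, and 7 of 10 were higher relative to Cd74 or H2-Ab1. B2m counts were 0.755 times those of Cd207 in library 1 and 0.304 times in library 2. The smallest shift relative to Cd207 was that of Nlrc5, at 0.0485 and 0.0453 times Cd207. With a dispersion of 0.04 in place of 0, edgeR's exact test called 7 of 10 genes, all lower, against 33.6% of all genes tested in either direction and 12% lower. There Nlrc5 (adjusted p = 0.187), Erap1 (0.127) and H2-K1 (0.106) were not called. The biological coefficient of variation between the libraries over all genes was 0.637. The dispersion of 0.04 was a chosen setting and stands for a smaller spread than that. Its calls therefore do not show differences beyond the spread between these libraries.

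Other inducible genes of the proteasome were also lower in library 2, though each by less than Psmb8 and Psmb9. The constitutive core moved less by its median, but the lists overlapped at Psma1 (-0.99) and Pomp (-0.93). All 4 of Psmb10, the proteasome activator genes Psme1 and Psme2, and the assembly factor gene Pomp were called lower in library 2, with log2 ratios from -1.62 (Psmb10) to -0.93 (Pomp) and a median of -1.22. Psme1 was at 159 and 111 CPM and Psme2 at 48.7 and 25.6 CPM. Of the 14 constitutive core subunit genes 13 were called lower and none at least 2-fold, and their median was -0.43, as for expressed genes. By CPM 9 of the 14 were higher in library 2, so the direction of this list depends on scaling. The highest per kb were Psma6 (58.0 and 50.5 CPM per kb), Psma4 (27.3 and 28.7), Psmb6 (27.0 and 28.5) and Psma7 (21.4 and 25.6). Their log2 ratios ran from -0.99 (Psma1) to 0.05 (Psma5, not called).

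Chaperones of the endoplasmic reticulum that assist class I folding had a median ratio close to that of expressed genes, and several of them were abundant. The highest per kb were Hspa5 (248 and 266 CPM per kb), which encodes the chaperone BiP, Calr (169 and 206), Hsp90b1 (145 and 130) and P4hb (108 and 132). Of 11 genes of this list, 10 were called lower by TMM-scaled ratio, with a median of -0.49. At least 2-fold lower were 2 of them, Tapbpl and Uggt1 (-1.20). Yet 6 of 11 were higher in library 2 by CPM, so the direction of this list depends on scaling. Tapbpl, a relative of tapasin that edits peptides outside the loading complex, had the lowest ratio of the list, with 19.7 and 7.67 CPM (log2 ratio -1.86). Pdia6 had the highest (-0.01, not called).

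Among 6 other peptidases 2 were called lower and 2 higher. Lnpep, an aminopeptidase of endosomes, was at 277 and 178 CPM (log2 ratio -1.14) and Tpp2, a large cytosolic peptidase, at 124 and 82.6 CPM (-1.08). Blmh, bleomycin hydrolase, was at 31.5 and 74.1 CPM (0.73) and Thop1 at 17.8 and 34.0 CPM (0.43). Npepps and Lap3 were not called. By CPM only Lnpep and Tpp2 were lower in library 2.

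Of 20 regulators of class I genes, 17 were called lower in library 2, 8 of them at least 2-fold, and the median was -0.92. Among expressed genes 65.8% were called lower and 20.7% at least 2-fold lower. By CPM 16 of the 20 were lower, and with total counts 2 were called at least 2-fold lower. Jak1, a kinase of interferon receptors, was at 314 and 234 CPM, the interferon gamma receptor gene Ifngr1 at 102 and 60.5 CPM, and Nfkb1 at 467 and 355 CPM. Irf1, an activator of class I and immunoproteasome genes, was at 66.1 and 53.5 CPM (log2 ratio -0.81). The X-box factor Rfx5 went the other way, at 22.1 and 50.6 CPM (0.70, the highest of the list), as did the NF-κB subunit gene Rela at 74.3 and 159 CPM (0.59). The partners of Rfx5, Rfxap (17.3 and 12.8 CPM) and Rfxank (9.97 and 9.13 CPM), were called lower.

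Genes of cross-presentation, by which dendritic cells load class I with peptides taken up from outside, were all called lower in library 2 (9 of 9, median log2 ratio -1.76). Among expressed genes 65.8% were called lower. The lowest of the 9 was Rac2, a GTPase of the phagocyte oxidase, at 58.8 and 12.1 CPM (-2.78). The oxidase genes Cybb (165 and 47.9 CPM) and Cyba (83.5 and 29.7 CPM) and Wdfy4 (61.4 and 25.7 CPM) were at least 2-fold lower. Sec22b, a trafficking protein, had the highest ratio (-0.28) with 20.3 and 23.7 CPM. Of the translocon genes, Sec61a1 was at 91.1 and 106 CPM and Sec61b at 23.7 and 20.9 CPM. By CPM 2 of the 9 genes, Sec22b and Sec61a1, were higher in library 2, so their direction depends on scaling.

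Several class Ib genes, the less polymorphic relatives of H2-K1 and H2-D1, were expressed at high levels. H2-M2 was highest, with 440 CPM in library 1 and 318 CPM in library 2. Per kb of exon this was 283 and 205 CPM per kb, 1.22 and 1.11 times the level of H2-K1, though 0.806 and 0.734 times with principal transcript lengths. Of its 50-base words H2-M2 shares 1.61% with other genes. The shares were higher for H2-Q6 (31.97%), H2-Q4 (21.8%) and H2-T23 (13.6%), above those of H2-K1 and H2-D1, and the levels of these genes are uncertain to that extent. H2-Q4 followed at 54.6 and 38.5 CPM per kb, H2-Q6 at 58.2 and 28.9, and H2-T23, which encodes Qa-1, at 28.2 and 16.99.

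Of 15 class Ib genes, 11 were above background in both libraries, 12 were called lower in library 2 and 1 higher. The median log2 ratio was -0.97. Called lower were 36.1% of all genes tested and 65.8% of expressed genes. With total counts 10 of the 15 were called lower and 3 higher. H2-M3, which presents formylated peptides and carries the spaced promoter pair shown above, was at 24.3 and 8.07 CPM and had the lowest ratio of this list (-2.09). The gene called higher with TMM, H2-M9, had 0 counts in library 1 and 90 in library 2, where it lay within background. Of the 6 class I-like genes of other loci, Fcgrt (13.8 and 14.7 CPM) and Hfe (16.5 and 6.10 CPM) were above background in both libraries, and 4 of the 6 were called lower and 2 higher. By CPM 4 of the 6 were higher in library 2, so this direction depends on scaling.

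MHC class II genes, the other arm of antigen presentation and part of the sort gate, were set beside the class I genes for comparison. All 10 of the class II list were called lower in library 2 with either scaling. With TMM all 10 were at least 2-fold lower (12.6% of all genes and 20.7% of expressed genes). With total counts 3 were (5.47% of all genes). The TMM-scaled values had log2 ratios from -1.87 (H2-DMa) to -1.01 (H2-Ob) and a median of -1.33. Per kb of exon Cd74 stood at 4281 and 2422 CPM per kb, H2-Ab1 at 1358 and 760.4, H2-Eb1 at 1007 and 634 and H2-Aa at 549 and 324. The class I genes ranged more widely, from -2.00 to -0.69. B2m counts were 0.118 times those of the invariant chain gene Cd74 in library 1 and 0.0787 times in library 2, while H2-K1 counts were 0.195 and 0.277 times those of H2-Ab1. The log2 ratios of all 10 class II genes lay between those of B2m and H2-K1.

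**Figure D3:**
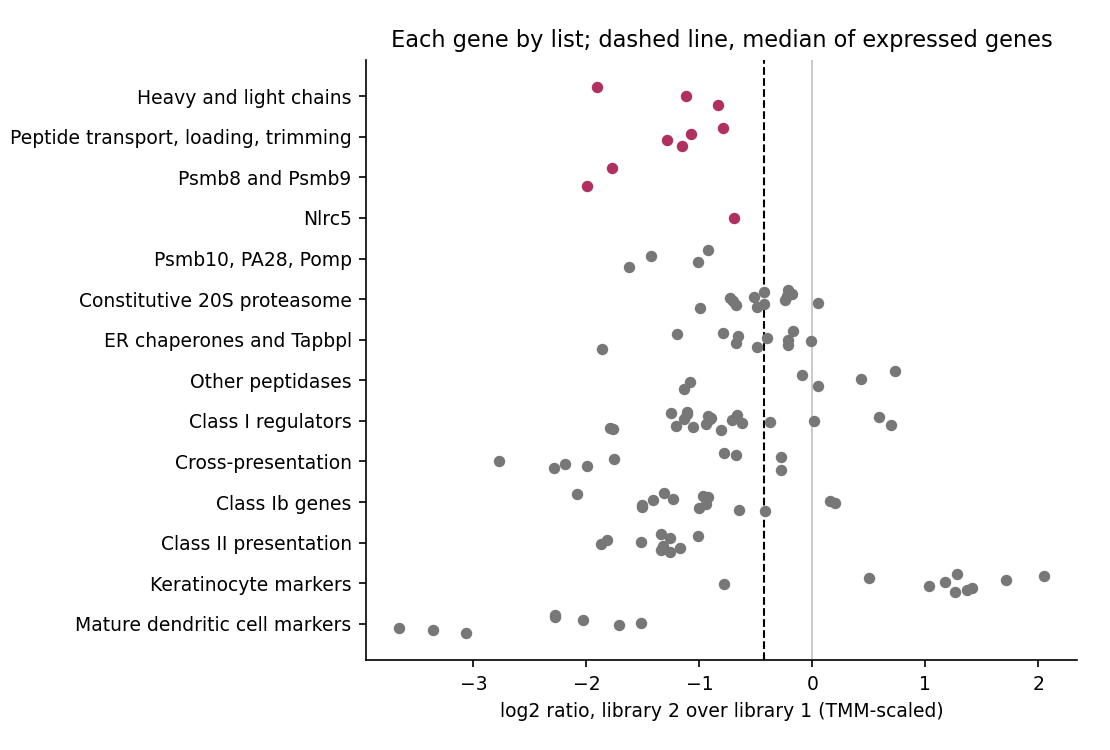
TMM-scaled log2 ratios of library 2 over library 1, with 1 point per gene with a mean of at least 1 CPM and counts in both libraries; red points are the 10 class I and peptide loading genes by role, and grey points are other lists. The dashed line is the median of expressed protein-coding genes (-0.43); all red points lie to its left, the constitutive proteasome straddles it, keratinocyte markers lie mostly to the right of 0 and mature dendritic cell markers lie at the far left.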

How the data were processed

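The deposited table holds counts per Ensembl gene, made by the authors from each library and not pooled. Trimmomatic, HISAT2, SAMtools, StringTie and GRCm38 are named, per the submitters' processing notes, without versions. The annotation release and counting settings are not stated in the labels. Whether each count is a tally of single reads is therefore not known. The exact intervals and tests treat it as such. A blank row and a row of column totals were dropped. Names, positions and exon lengths (union of exons, or the longest APPRIS principal transcript) came from GENCODE M21, which matched 55227 rows. Rows with the same symbol were added up for the test.

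The test between libraries took genes reaching 1 CPM in either library, TMM scaling and edgeR's binomTest (version 4.0.16 under R 4.3.3), an exact test, with Benjamini-Hochberg adjustment, a threshold of 0.05 and a prior count of 1 in log2 ratios. A quasi-likelihood test has no residual degrees of freedom here. Intervals are exact Poisson or binomial (Python 3.11.15, scipy 1.17.1). DESeq2 1.42.0 gave alternative size factors. The test was tried only on simulated counts that held sampling noise alone, so that trial does not cover the spread between these libraries. At 0 counts the limit of 3 counts is 0.0429 CPM in library 1 and 0.0710 CPM in library 2.

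The members and gene lists were chosen with earlier results of these data known. All members were named. From each other list came up to 4 genes highest per kb, the highest and lowest ratio where the mean reached 1 CPM, and the constitutive counterparts of the immunoproteasome genes. Further genes in the text were chosen after their values were seen. An item that the naming rule would include is not reported here.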

Additional observations from a re-analysis of the deposited data

How the results depend on the processing

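All 10 genes remained lower in library 2 with total counts, DESeq2 size factors, no count filter, at least 10 counts in both libraries, background subtraction and relative to Cd207, Epcam or Cdh1. Relative to Mfge8, Cd74 or H2-Ab1 their median log2 ratio turned positive (0.91, 0.18 and 0.20). With total counts 3 genes in place of 7 were at least 2-fold lower. The marker scalings and the 2-fold count were added after seeing the data. Of 50 alternative log2 ratios of single genes, 47 kept their side of the threshold, 3 lost the call, all at a dispersion of 0.04, and 0 reversed. The 50 did not include the marker scalings, some of which turned the direction. All but those at a dispersion of 0.04 were tested against sampling noise only. All 10 stayed above background at the 99th percentile, without division by length and in each library. Ratios between genes moved with the length used. As geometric means over the libraries, Psmb8 to Psmb5 was 1.28 per kb and 4.80 in counts, Psmb9 to Psmb6 0.174 and 0.340, Psmb10 to Psmb7 0.726 and 0.362 (0.320 with principal transcripts), the summed heavy chains to B2m 0.768 and 2.45, H2-K1 to H2-D1 0.798 per kb and 1.18 with principal transcripts, and Tap1 to Tap2 1.43, 2.07 and 2.42 (per kb, counts, principal transcripts). The principal transcript lengths were added after seeing the data. No paired analysis was possible because the labels give a single group. Across all genes the number called was 24358 in the reported test and 10189 at a dispersion of 0.04. The share of calls that were higher in library 2 was 55.1% with TMM and 75.9% with total counts, and the median log2 ratio of all genes was 0.15 and 0.65.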
